A study of Mus musculus with 8 samples.

Results

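Respiratory complexes II to V are built from nuclear-encoded subunits together with a few mitochondrially encoded ones. The nuclear part is described here in cells that the study names mouse liver endothelial cells (ECs). The members were the genes whose symbol begins with Uqcr (complex III), Cox4 to Cox8 (complex IV) or Atp5 (complex V), together with Sdha, Sdhb, Sdhc and Sdhd (complex II). The rule found 47 of the 22520 protein-coding genes in the table, and it used names and no measured values. They comprised 4 genes of complex II, 8 of complex III, 17 of complex IV and 18 of complex V, and lay on 17 chromosomes. Of the 47 genes, 43 had signals no lower than 1 in 4 or more of the 8 libraries and were tested. The 4 that did not were Cox7b2, Cox8b, Cox8c and Atp5l-ps1. Subunits under other symbols, Cyc1 of complex III among them, are not members, and Cox4i1, which the rule would cover, was not analysed here.

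The study screened ECs of mice lacking the endocytic receptor LRP1 in endothelium by mRNA-seq. The 4 LRP1 eKO libraries came from LRP1 f/f; Cdh5-CreER+/- mice and the 4 WT libraries from littermate LRP1 f/f; Cdh5-CreER-/- mice, all C57BL/6 at postnatal day 14. Both groups therefore carried the floxed allele, and the inducible CreER, driven by the Cdh5 promoter of endothelium, was present only in LRP1 eKO mice, so that effects of CreER and of LRP1 loss cannot be told apart. The labels name the cells as liver microvesicular cells, and the study's methods describe microvascular ECs collected with PECAM-1 antibody on magnetic beads. Nothing states that the 4 libraries of a group came from separate animals, so p-values measure the spread between these libraries. In bulk RNA, fewer cells of a type and less RNA per cell cannot be told apart.

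In mitochondria, complex II oxidizes succinate and passes the electrons to ubiquinone. Complex III transfers them to cytochrome c, complex IV hands them to oxygen, and complex V, the ATP synthase, uses the proton gradient to make ATP. Several complex IV subunits exist as a ubiquitous (liver) isoform and as an isoform of heart and skeletal muscle, and ECs are known to draw much of their ATP from glycolysis.

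Promoter sequences came from RefSeq (GRCm38.p6), in which 37 of the 47 members had an entry of 250 bases before and 50 bases after a transcript start. Both strands were searched for the core letters of motifs of factors known to act at respiratory genes. The ETS core CCGGAAG was present in 12 of 34 promoters of ubiquitous members (35.3%), in 18% of the 11743 promoters of tested genes and in 8.86% of all 32851 promoters. The NRF1 core CATGCGC was present in 8 of the 34 (23.5%), against 6.88% and 3.91%. Because its letters partly mirror each other, matches on the 2 strands can overlap within GCGCATGCGC. These stretches of 30 bases, shown because they hold the match within 120 bases before the start, run 5′ to 3′ on the gene's strand, with the matched letters in capitals (ETS in the first 8, NRF1 in the last 4).
Atp5e (chr2:174464185-174464214, minus strand): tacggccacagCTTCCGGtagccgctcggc
Atp5h (chr11:115419939-115419968, minus strand): caaggagagaaCTTCCGGcaactctcttcc
Atp5j (chr16:84835019-84835048, minus strand): agctgagggacCCGGAAGcacttaccctcc
Cox6a1 (chr5:115348959-115348988, minus strand): cgtccccatttccgCTTCCGGcgcgccggt
Cox6b1 (chr7:30626124-30626153, minus strand): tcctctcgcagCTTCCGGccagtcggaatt
Sdhd (chr9:50603877-50603906, minus strand): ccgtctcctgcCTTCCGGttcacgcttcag
Uqcr11 (chr10:80406869-80406898, minus strand): ttctctcctccCCGGAAGtagatgtcaatg
Uqcrh (chr4:116075071-116075100, minus strand): actacgaggagtatgccgcaCTTCCGGcca
Atp5g2 (chr15:102671070-102671099, minus strand): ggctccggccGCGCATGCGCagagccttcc
Atp5k (chr5:108434430-108434459, minus strand): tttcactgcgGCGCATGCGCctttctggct
Cox5b (chr1:36691425-36691454, plus strand): gaggcagaactGCGCATGtgcggcgtctac
Sdhb (chr4:140961207-140961236, plus strand): agcccagtgggCATGCGCcctacgggccgc

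The same search found the estrogen-related receptor (ERR) core AAGGTCA in 5 of the 34 promoters (14.7%, against 3.18% of promoters of tested genes), the CCAAT box in 17 (50% against 37.9%) and the YY1 core AAGATGG in 4 (11.8% against 7.18%). The MEF2 letters TAAAAATA were in 0 of the 34 (1.17% of promoters of tested genes), and the E-box CAGCTG, a motif of muscle factors, was in 1 of 34 (2.94% against 14.9%). The subunit VIII pair, whose isoforms are compared further on, and the c subunit gene Atp5g3 show how the upstream stretches differ. In the 120 bases before the start, Cox8a held none of these letters, but elsewhere its searched promoter held an ETS core and a CCAAT box. In the 120 bases before their starts, the muscle isoform Cox8b held an E-box, as did the ubiquitous Atp5b, and the muscle isoform Cox7a1 held no E-box. Atp5g3 held a CCAAT box and an ERR core on the opposite strand. A match describes letters and not binding.
Cox8a (chr19:7217617-7217736, minus strand): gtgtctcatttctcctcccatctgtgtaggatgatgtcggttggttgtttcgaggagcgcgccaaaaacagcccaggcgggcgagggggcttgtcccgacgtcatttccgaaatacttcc
Cox8b (chr7:140900447-140900566, minus strand): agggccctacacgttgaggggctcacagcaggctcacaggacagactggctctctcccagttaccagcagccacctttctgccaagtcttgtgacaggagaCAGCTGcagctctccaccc
Atp5g3 (chr2:73911327-73911446, minus strand): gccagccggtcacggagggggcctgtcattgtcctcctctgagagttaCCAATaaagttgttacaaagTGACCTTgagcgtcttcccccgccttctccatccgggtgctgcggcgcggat

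The values are quantile-normalized signals that the authors deposited, with totals of 484445 to 485947 in every library, so that depth is unknown and levels of different genes were not compared. Lrp1, the targeted gene, had signals of 61.6, 59.0, 56.2 and 85.1 in WT libraries and 6.01, 2.16, 5.15 and 4.32 in LRP1 eKO libraries. Its log2 fold change was -3.66 (SE 0.23, limma adjusted p = 2.8e-06). The endothelial markers Pecam1 (1.53 to 2.50 in WT, 1.84 to 3.85 in LRP1 eKO) and Cdh5 (1.26 to 2.27 and 2.21 to 4.99) had low signals in both groups, whereas the smooth muscle marker Acta2 had 756 to 837 in WT and 1030 to 1100 in LRP1 eKO libraries. WT 4 stood apart, being the WT library farthest from the median of its group for 61.7% of genes, and it was the highest of all 8 libraries for 40 of the 43 tested members. The counts and medians over members are therefore also given without WT 4.

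All 43 tested members had a lower mean in LRP1 eKO than in WT libraries, and the differences were small. At a limma adjusted p below 0.05, 30 members were lower (69.8% of those tested), where 22.2% of the 11391 genes tested were lower. No member was higher, against 19% of all genes, and by limma 0 were higher at an unadjusted p below 0.05 either. No tested member passed both the adjusted p and a 2-fold change (1.66% of all genes did), nor did any with an unadjusted p below 0.05. Cox8b was below the filter and is not in these counts. Its LRP1 eKO mean was 9.39% of its WT mean, and its log2 fold change with 1 added was -0.70. The median log2 fold change of the tested members was -0.22, with a range of -0.61 to -0.07, where the median of all genes tested was -0.01. For 32 members every LRP1 eKO library lay below every WT library, as for 22.5% of all genes. Without WT 4, the median of the members was -0.15, 32 were lower, 28 of them shared with the 30 above, and 22.9% of all genes were lower. Of the 30 members, 21 kept an adjusted p below 0.05 whichever library was left out. Between 17.8% and 22.9% of all genes tested were lower in those fits.

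**Figure D1:**
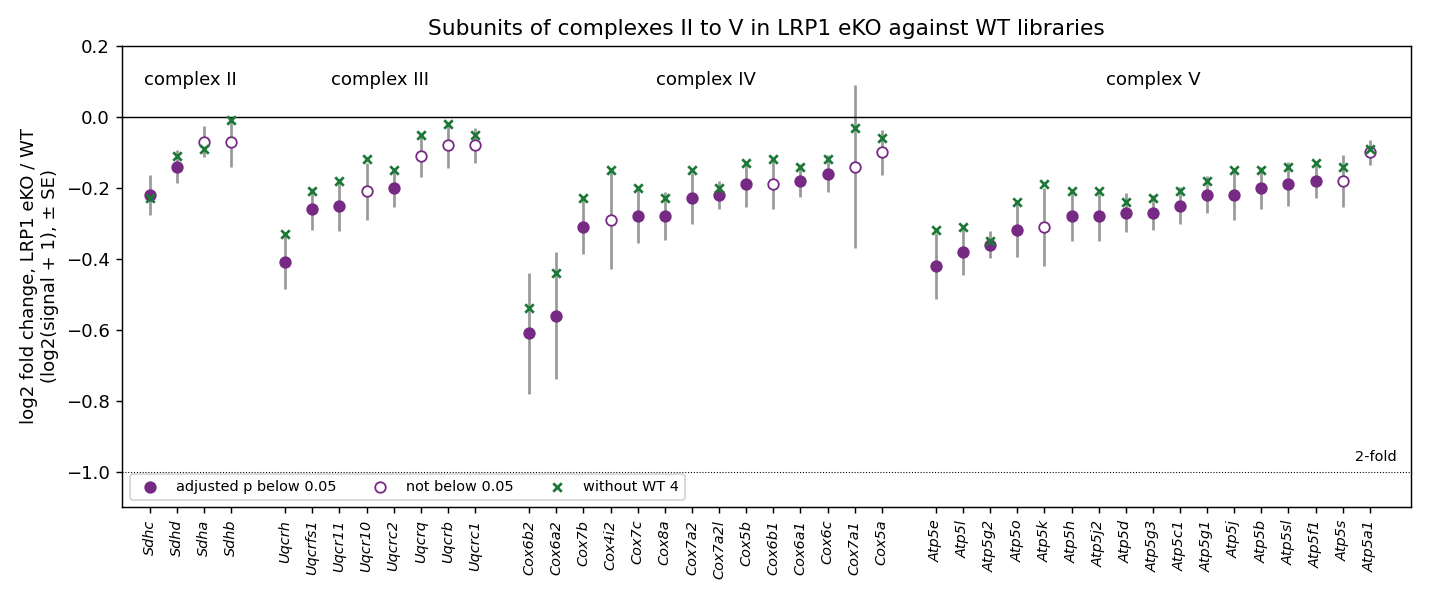
Each point is the log2 fold change of 1 tested member (LRP1 eKO over WT, log2(signal + 1), bars ± SE, 4 libraries a group), filled where the limma adjusted p was below 0.05, and crosses are the values without WT 4. All 43 points lie between 0 and the 2-fold line, at -0.61 to -0.07.

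Averaged over the ubiquitous subunits of a complex, each LRP1 eKO library lay below each WT library in all 4 complexes. Relative to the WT mean, the 4 genes of complex II deviated by 0.00, -0.01, -0.04 and 0.05 on the log2 scale in WT libraries 1 to 4 and by -0.12, -0.11, -0.15 and -0.13 in LRP1 eKO libraries. The 15 genes of complex V deviated by -0.06, -0.07, -0.04 and 0.17 in WT and by -0.26, -0.25, -0.31 and -0.27 in LRP1 eKO libraries. WT 4 was the highest library in each complex, and the other 3 WT libraries lay close together. For complex III, with 8 genes, the LRP1 eKO values were -0.17, -0.18, -0.24 and -0.21, and for complex IV, with 10 genes, they were -0.17, -0.19, -0.26 and -0.23. In each LRP1 eKO library complex V was the lowest of the 4 complexes and complex II the highest. Without WT 4, the LRP1 eKO mean differed from the WT mean by -0.11 in complex II, -0.14 in complex III, -0.16 in complex IV and -0.21 in complex V. Differences between complexes were not tested, since no p was computed for a mean over members.

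**Figure D2:**
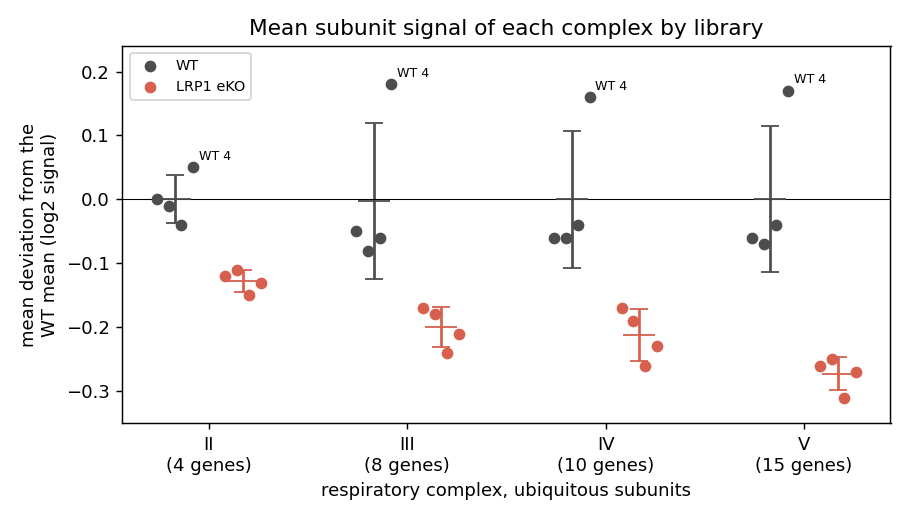
Points are single libraries, plotted as the mean deviation of the ubiquitous subunits of a complex from their WT mean (log2 signal), with the mean and SD of 4 libraries. LRP1 eKO points lie below all WT points in each complex, and WT 4 is the highest WT point in each.

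In complex II, 2 of 4 genes were lower, the membrane anchor genes Sdhc and Sdhd, against 22.2% of all genes tested. The catalytic genes Sdha and Sdhb did not pass, and no test compared anchor with catalytic genes. The median of the 4 genes was -0.11. Sdhc, the large cytochrome b anchor, had signals of 71.4, 67.5, 60.0 and 63.9 in WT and 58.2, 57.7, 55.1 and 54.2 in LRP1 eKO libraries. Its groups did not overlap, and it differed by -0.22 (SE 0.057, limma adjusted p = 0.013). Sdhd, the small anchor, had 84.9, 81.3, 83 and 90.1 in WT and 79.2, 77.6, 73.1 and 77.3 in LRP1 eKO libraries, a log2 fold change of -0.14 (adjusted p = 0.033). That call was lost without WT 1, WT 3, LRP1 eKO 2, LRP1 eKO 3 or LRP1 eKO 4, at adjusted p up to 0.098. Sdha, the flavoprotein that oxidizes succinate, had 67.8, 66.5, 64.1 and 62.3 in WT and 60.8, 60.9, 64.3 and 62.8 in LRP1 eKO libraries, with overlapping groups and a log2 fold change of -0.07 (adjusted p = 0.24). It was 1 of 3 tested members in which WT 4 was not the highest library of all. Sdhb, the iron-sulfur subunit, ranged from 54.0 to 69.8 in WT and from 55.6 to 59.7 in LRP1 eKO libraries, and its log2 fold change of -0.07 became -0.01 without WT 4.

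In complex III, 4 of 8 genes were lower, against 22.2% of all genes tested. The median log2 fold change of the 8 was -0.20, or -0.14 without WT 4. Uqcrh, the hinge protein that contacts cytochrome c1, differed most, with signals of 259, 269, 295 and 338 in WT and 222, 219, 213 and 216 in LRP1 eKO libraries. The 4 LRP1 eKO values were close together and below all WT values, and the log2 fold change was -0.41 (SE 0.075, limma adjusted p = 0.0022), or -0.33 without WT 4. Uqcrfs1, the Rieske iron-sulfur protein that carries electrons to cytochrome c1, had 52.6, 55.5, 55.6 and 64.1 in WT and 48.0, 47.7, 45.8 and 47.3 in LRP1 eKO libraries (log2 fold change -0.26, adjusted p = 0.0066). Uqcrc2, a core protein, differed by -0.20 (adjusted p = 0.015), whereas its partner core protein Uqcrc1, with 74.8 to 84.2 in WT and 70.2 to 76.1 in LRP1 eKO libraries, differed by -0.08 (adjusted p = 0.19). Of the 5 small subunits, Uqcrh and Uqcr11 were lower. Uqcr11 differed by -0.25 (adjusted p = 0.021), a call lost without LRP1 eKO 3 at an adjusted p of 0.057. Uqcr10 had groups that did not overlap and differed by -0.21 (adjusted p = 0.061), with -0.12 (adjusted p = 0.034) without WT 4, an adjusted p of 0.047 without WT 3 and 0.062 to 0.14 without any of the others. Uqcrb, which binds ubiquinone, had the least change of the complex beside Uqcrc1, at -0.08 (adjusted p = 0.32) and -0.02 without WT 4. Uqcrq differed by -0.11 (adjusted p = 0.18). Cyc1, the cytochrome c1 subunit of the same complex, and Cycs, its electron acceptor cytochrome c, had log2 fold changes of -0.01 (adjusted p = 0.88) and 0.02 (adjusted p = 0.85). Their groups overlapped, with Cyc1 at 52.2 to 59.8 in WT and 50.9 to 56.9 in LRP1 eKO libraries.

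In complex IV, 8 of the 10 ubiquitous genes were lower, against 22.2% of all genes tested. The median of the 10 was -0.20, or -0.15 without WT 4. Cox7b, on the X chromosome, had signals of 112, 106, 98.4 and 130 in WT and 94.5, 91.0, 87.0 and 86.0 in LRP1 eKO libraries, the largest difference among the ubiquitous genes at -0.31 (SE 0.078, limma adjusted p = 0.011). Cox8a, the ubiquitous subunit VIII, had 360, 380, 389 and 427 in WT and 342, 338, 314 and 291 in LRP1 eKO libraries. Its groups did not overlap and it differed by -0.28 (SE 0.067, adjusted p = 0.0092). Cox7c, subunit VIIc, differed by the same amount (adjusted p = 0.015). Cox7a2l, a relative of subunit VIIa, had 154, 158, 163 and 167 in WT and 140, 134, 139 and 139 in LRP1 eKO libraries. It differed by -0.22 with the smallest adjusted p of the complex, 0.0024, and by -0.20 without WT 4. Cox6a1, the ubiquitous subunit VIa, differed by -0.18 (adjusted p = 0.014) and Cox6c by -0.16 (adjusted p = 0.030). The 2 ubiquitous genes that did not pass were Cox5a, with -0.10 (adjusted p = 0.22) and overlapping groups, and Cox6b1, with -0.19 (adjusted p = 0.057), which without WT 4 was -0.12 (adjusted p = 0.044). Cox5b, subunit Vb, differed by -0.19 (adjusted p = 0.044), but that call held in only 2 of the 8 fits that left out 1 library. The call was lost at adjusted p of 0.054 to 0.11 without WT 1, WT 2, WT 4, LRP1 eKO 2, LRP1 eKO 3 or LRP1 eKO 4. The calls of Cox7a2 (-0.23, adjusted p = 0.033, or -0.15 without WT 4, lost without WT 3 or LRP1 eKO 1, 3 or 4 at up to 0.086) and Cox6c (lost without WT 3 or LRP1 eKO 1, 2 or 3 at up to 0.089) depended on single libraries in the same way.

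Of 7 tissue isoforms of complex IV, 4 were tested, and Cox6a2 and Cox6b2 were lower, against 22.2% of all genes tested. Cox6a2, subunit VIa of heart and skeletal muscle, had 2.24, 2.79, 1.74 and 3.47 in WT and 1.79, 0.781, 1.89 and 1.24 in LRP1 eKO libraries. The groups overlapped, and the log2 fold change was -0.56 (SE 0.18, limma adjusted p = 0.034). The call was lost without WT 2 (0.074), WT 4 (0.079), LRP1 eKO 2 (0.070) or LRP1 eKO 4 (0.081). Cox7a1, subunit VIIa of heart and muscle, had 1.27, 2.09, 2.65 and 3.04 in WT and 2.68, 2.24, 0.816 and 2.22 in LRP1 eKO libraries, which overlapped widely (-0.14, SE 0.23, adjusted p = 0.65). Cox8b, subunit VIII of heart and muscle, was below the filter, with 0.580, 0.472, 0.987 and 0.979 in WT and 0.137 and 0.146 in LRP1 eKO 1 and 2, and it was listed at 0 in LRP1 eKO 3 and 4. Every LRP1 eKO library lay below every WT library, and a limma fit without the filter gave -0.70 on the log2(signal + 1) scale (adjusted p = 0.0084), which understates a change at such low signals. Cox6b2, the testis isoform of subunit VIb, had 25.0, 21.6, 19.2 and 26.8 in WT and 19.2, 10, 16.9 and 14.0 in LRP1 eKO libraries. With 1 added to the signal it had the largest difference of all tested members, -0.61 (SE 0.17, adjusted p = 0.019), but with 0.1 added Cox6a2 exceeded it (-0.83 against -0.65). WT 3 and LRP1 eKO 1 had the same signal to 3 digits. Cox4i2, the lung isoform of subunit IV, ranged from 1.05 to 2.43 in WT and from 0.949 to 1.29 in LRP1 eKO libraries (-0.29, adjusted p = 0.12). Left out in turn, WT 3 gave -0.40 (adjusted p = 0.039) and WT 4 gave -0.15 (adjusted p = 0.24). Cox8c was listed at 0 in all 8 libraries, and Cox7b2 in all but LRP1 eKO 1 (0.0692).

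**Figure D3:**
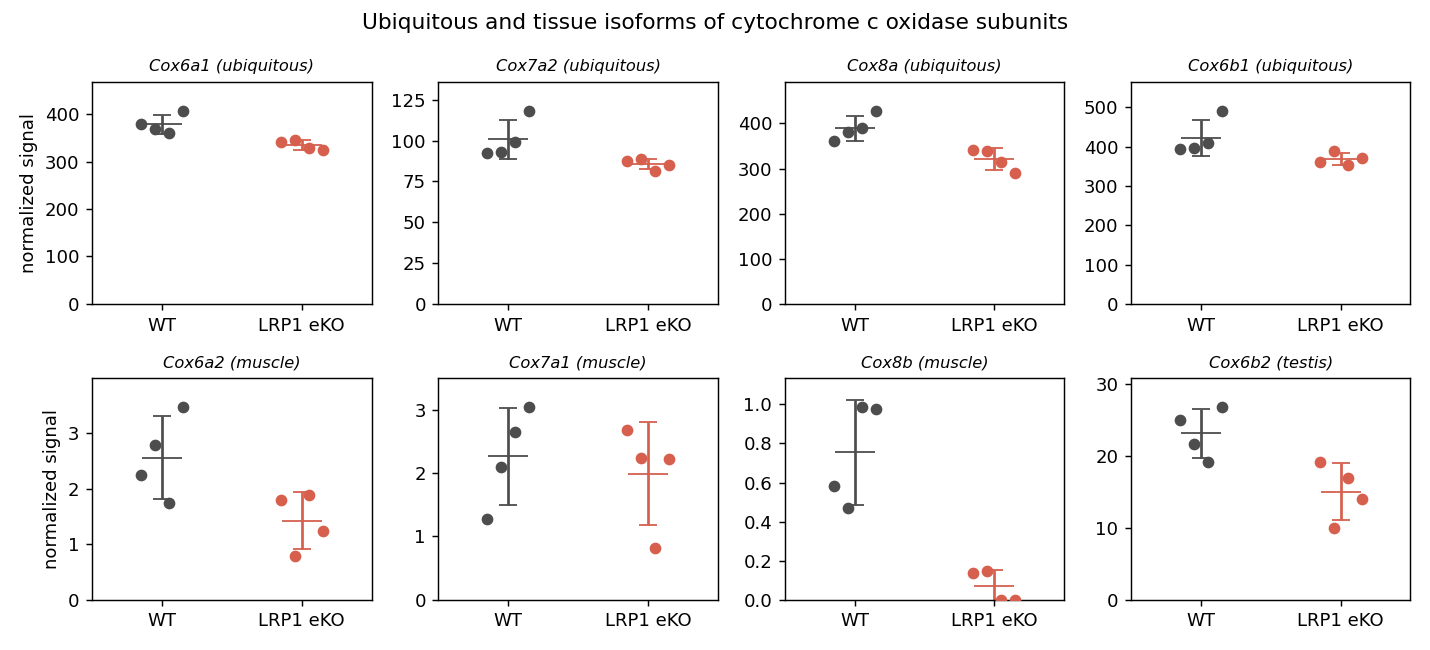
Normalized signal of 4 ubiquitous subunits (top) and of the muscle or testis isoform of the same subunit (bottom) in single WT and LRP1 eKO libraries, with the mean and SD of 4 libraries, each axis starting at 0. Of the 4 tissue isoforms, the groups separate for Cox8b and overlap for the others.

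Muscle and ubiquitous isoforms were compared as the log2 ratio of their signals within a library, with 1 added to each signal. The Cox8b to Cox8a ratio was -7.83, -8.02, -7.62 and -7.76 in WT and -8.24, -8.21, -8.30 and -8.19 in LRP1 eKO libraries, and the groups did not overlap. The LRP1 eKO mean differed from the WT mean by -0.43 (p = 0.029 in an exact permutation test, two-sided, for which 4 against 4 libraries give no smaller value), or by -0.41 without WT 4. With a Cox8b signal below 1 that ratio depended on the added constant, and the difference was -2.13 with 0.1 added and 0.09 with 5 added. The Cox6a2 to Cox6a1 ratio differed by -0.38 with overlapping groups (p = 0.14, exact test), and the Cox7a1 to Cox7a2 ratio by 0.08 (p = 0.66, exact test). The testis pair Cox6b2 to Cox6b1 differed by -0.43 with overlapping groups (p = 0.14, exact test). Adjusted over the 7 ratios computed, 4 here and 3 of the c subunit genes, the smallest p was 0.13. For Cox6a2 and Cox7a1, a change relative to the ubiquitous isoform was not detectable with these libraries.

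Summed over the 13 skeletal muscle markers in the table, the signal was 49.3 to 78.0 in WT (up to 52.2 without WT 4) and 15.3 to 16.6 in LRP1 eKO libraries. By limma, 6 of the 13 were tested and 6 were lower, with a median of -1.80 (-1.64 without WT 4), but Tnnc2 and Atp2a1 met the filter only through WT libraries, so that their direction was set by it. The 8 cardiac markers summed to 28.2 to 33.3 in WT and 11.5 to 14.4 in LRP1 eKO libraries. Of 4 tested, Tnnt2 (-1.32), Myl4 (-1.26) and Actc1 (-1.33, which met the filter only through WT) were lower, and Myl7 differed by 0.39 (limma adjusted p = 0.056). The muscle creatine kinase Ckm stayed at 0 to 0.269 in all libraries, and no skeletal muscle marker was listed at 0 in all 8. The 4 tested hepatocyte markers were also lower (sums of 62.3 to 90.9 and 20.8 to 28.2), and the smooth muscle markers Acta2, Tagln and Cnn1 were higher, as was Myh11, which met the filter only through LRP1 eKO libraries (sums of the 4: 1450 to 1510 and 1800 to 1880). The part of these marker differences in the values of the muscle isoforms and other members was not tested. Brown fat markers, which accompany Cox8b and Cox7a1 in that tissue, summed to 0.217 to 0.307 in WT and 0.124 to 0.286 in LRP1 eKO libraries, with Ucp1 listed at 0 in all 8 libraries.

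**Figure D4:**
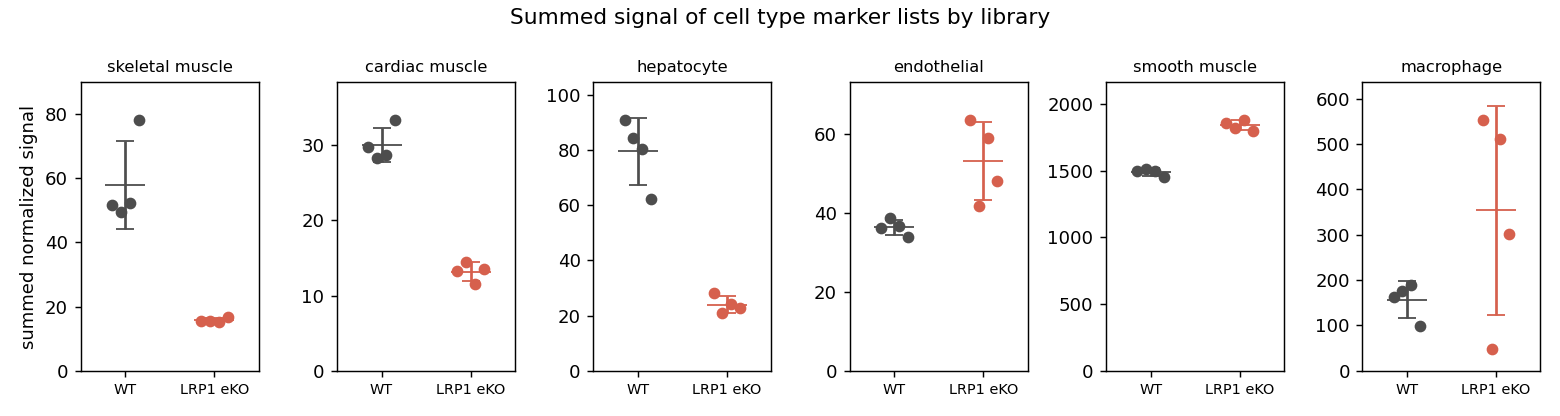
Summed normalized signal of 6 lists of cell type markers in single WT and LRP1 eKO libraries, with the mean and SD of 4 libraries, each axis starting at 0. The skeletal muscle sums are 49.3 to 78.0 in WT and 15.3 to 16.6 in LRP1 eKO libraries, and the macrophage sums spread from 48.1 to 553 within LRP1 eKO.

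Of the 15 subunit genes of complex V, 13 were lower, against 22.2% of all genes tested. The median log2 fold change of the 15 was -0.27 (-0.21 without WT 4). For all 15 every LRP1 eKO library lay below every WT library, as for 22.5% of all genes tested. In the F1 head, which holds the catalytic sites and the central stalk, 4 of 5 genes were lower. Atp5e, the epsilon subunit of the stalk, had signals of 240, 230, 249 and 320 in WT and 201, 194, 179 and 194 in LRP1 eKO libraries, a log2 fold change of -0.42 (SE 0.094, limma adjusted p = 0.0060) that was -0.32 without WT 4. Atp5d, the delta subunit, and Atp5c1, the gamma subunit, differed by -0.27 and -0.25. Atp5b, the catalytic beta subunit, had 469, 462, 462 and 530 in WT and 416, 450, 394 and 411 in LRP1 eKO libraries (-0.20, adjusted p = 0.022), and its call was lost without LRP1 eKO 3 (0.065) or LRP1 eKO 4 (0.057). Atp5a1, the alpha subunit, had 208, 212, 219 and 218 in WT and 200, 198, 203 and 198 in LRP1 eKO libraries, groups that did not overlap but differed by only -0.10 (adjusted p = 0.052, or 0.043 without WT 4).

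The c subunit, which forms the rotating ring of the membrane part, is made from 3 genes that encode the same mature protein. All 3 were lower, against 22.2% of all genes tested. Atp5g2 had the smallest adjusted p of all members, 8.2e-05, with signals of 187, 179, 183 and 190 in WT and 146, 139, 143 and 146 in LRP1 eKO libraries. Here WT 4 was close to WT 1, and the log2 fold change of -0.36 (SE 0.038) was -0.35 without WT 4. Atp5g3 had 292, 284, 291 and 319 in WT and 248, 252, 232 and 253 in LRP1 eKO libraries (-0.27, adjusted p = 0.0023), and Atp5g1 had 189, 188, 182 and 212 in WT and 164, 172, 162 and 161 in LRP1 eKO libraries (-0.22, adjusted p = 0.0081). The log2 ratio of Atp5g1 to Atp5g2 differed by 0.14 between genotypes (p = 0.057, exact two-sided permutation test), that of Atp5g2 to Atp5g3 by -0.10 (p = 0.057, exact test) and that of Atp5g1 to Atp5g3 by 0.05 (p = 0.29, exact test), and in each the groups overlapped.

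All 4 genes of the peripheral stalk were lower, with a median of -0.25 (-0.18 without WT 4), against 22.2% of all genes tested. So were 2 of 3 genes of the other membrane subunits, with a median of -0.31 (-0.21 without WT 4). Atp5o, the oligomycin sensitivity protein at the top of the stalk, had 183, 181, 184 and 230 in WT and 153, 160, 152 and 154 in LRP1 eKO libraries (-0.32, SE 0.074, limma adjusted p = 0.0071). Atp5h, Atp5j and Atp5f1, the d, F6 and b subunits of the stalk, differed by -0.28, -0.22 and -0.18, and the call of Atp5j was lost without LRP1 eKO 2 (0.058) or LRP1 eKO 3 (0.080). Atp5l, subunit g, which helps to pair ATP synthases at the cristae, had 423, 416, 423 and 517 in WT and 338, 343, 338 and 338 in LRP1 eKO libraries (-0.38, SE 0.067, adjusted p = 0.0016, or -0.31 without WT 4). Quantile normalization gives libraries shared values, so that equal signals such as these recur. Atp5k, subunit e and the partner of subunit g, had 166, 170, 189 and 246 in WT and 144, 162, 146 and 163 in LRP1 eKO libraries, a log2 fold change of -0.31 (adjusted p = 0.052). Without WT 4 it was -0.19 (adjusted p = 0.041), and the adjusted p was 0.033 without WT 1, 0.042 without WT 2 and 0.061 to 0.12 without any of the other libraries. Atp5j2, subunit f, differed by -0.28 (adjusted p = 0.011). The 2 genes that carry an Atp5 name without being subunits were alike in size, Atp5s with -0.18 (adjusted p = 0.067) and Atp5sl with -0.19 (adjusted p = 0.031, lost without LRP1 eKO 1, 3 or 4 at up to 0.079). Atp5l-ps1, a processed pseudogene on chromosome 7, was listed at 0 in 7 libraries and had 0.186 in LRP1 eKO 3.

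Several members share sequence with other annotated genes. Of the 50-base stretches of the transcripts of Atp5l, 84.8% recur in transcripts of other GENCODE genes, such as processed pseudogenes, as do 47.6% of those of Atp5o (an antisense gene and a second entry named Atp5o hold the most), 43.4% of Uqcrb and 38.3% of Atp5g2, so that their signals are uncertain if reads were split between copies. The share was 0% for Atp5e, Atp5d, Atp5g3, Cox8a, Cox8b, Cox6b2, Uqcrfs1, Sdha and Sdhd. Uqcrc2 and Pdzd9, Atp5j and Gabpa, and Cox6a2 and Itgad overlap on opposite strands, and whether the counting used strand is not stated, so that the signals within each pair cannot be told apart fully.

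The mitochondrially encoded subunits of complexes III to V had no called decrease. Of 6 such genes tested, 0 were lower at a limma adjusted p or an unadjusted p below 0.05, 2 were higher, and the median log2 fold change was 0.21. Cytochrome b of complex III, mt-Cytb, had signals of 2000, 2000, 1890 and 1760 in WT and 2000, 2430, 2430 and 2240 in LRP1 eKO libraries (0.25, SE 0.072, adjusted p = 0.021). The catalytic subunit I of complex IV, mt-Co1, had 6020 in all 4 WT libraries and 6020, 7610, 7610 and 7610 in LRP1 eKO libraries (0.25, adjusted p = 0.025). These genes hold the top ranks of the table, where quantile normalization allows only a few values, so that the 2 differences amount to steps of rank, and the groups of all 6 genes overlapped.

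Assembly factors and the inhibitor of the ATP synthase were counted apart. Of 35 tested, 10 were lower (28.6%, near the 22.2% of all genes), 1 was higher and the median log2 fold change was -0.15, or -0.09 without WT 4. Atpif1, the protein that blocks ATP hydrolysis by complex V, had 346, 338, 346 and 402 in WT and 238, 233, 238 and 236 in LRP1 eKO libraries. At -0.60 (SE 0.056, limma adjusted p = 3.7e-05), or -0.54 without WT 4, it differed more than any subunit of complex V. Cmc2, which takes part in complex IV assembly, had 13.2, 13.2, 14.8 and 17.8 in WT and 8.03, 7.14, 9.68 and 8.44 in LRP1 eKO libraries (-0.76, adjusted p = 5.1e-04). Cox16 and Cox19, also of complex IV assembly, differed by -0.35 (adjusted p = 0.0030) and -0.34 (adjusted p = 0.010), and Bcs1l, the chaperone that inserts the Rieske protein Uqcrfs1 into complex III, by -0.29 (adjusted p = 0.0059). Coa5, of complex IV assembly, was higher, with 22.1, 22, 21.6 and 17.7 in WT and 24.4, 25.0, 25.0 and 24.8 in LRP1 eKO libraries (0.25, adjusted p = 0.018).

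All 37 complex I subunits tested had lower means in LRP1 eKO libraries, 20 of them at a limma adjusted p below 0.05, where 22.2% of all genes tested were lower. The median of the 37 was -0.21, or -0.14 without WT 4. Of 76 mitochondrial ribosomal protein genes 27 were lower (median -0.18, or -0.11 without WT 4), as were 59 of 80 cytosolic ribosomal protein genes (median -0.18, or -0.14 without WT 4). No test compared the members with these groups, so that the decrease is not shown to be particular to respiratory complexes. The median coding transcript length was 680 bases for the 43 tested members and 2125 bases for the tested genes with a known length. All tested genes shorter than 600 bases had a median of -0.09, with 30.6% lower, and those of 4000 bases or more a median of 0.12, with 10.1% lower. In the same bins WT 4 differed from the mean of the other WT libraries by 0.13 and -0.17 at the median gene. Members lay below the median of all genes in each bin that held any, with -0.26 for the 16 members under 600 bases, of which 9 were lower, and -0.25 for the 14 members of 600 to under 1000 bases, of which 11 were lower (all genes in that bin: -0.09, with 32.3% lower). The part of transcript length in the members' decrease was not tested.

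**Figure D5:**
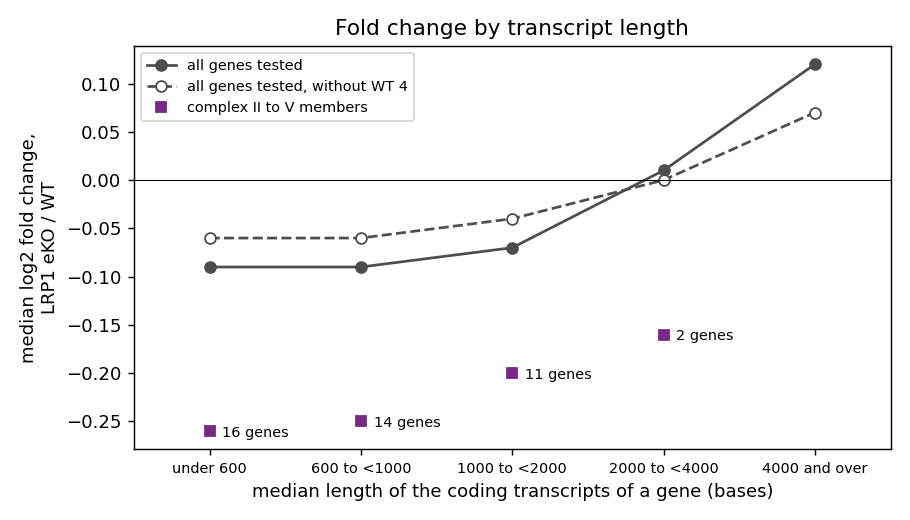
Median log2 fold change (LRP1 eKO over WT) by the median coding transcript length of a gene in bases, for all genes tested (line, dashed without WT 4) and for the members (squares, with their number). The line runs from -0.09 in the shortest bin to 0.12 in the longest, and the squares lie below it at -0.26 to -0.16.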

How the data were processed

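Total RNA of cells that the study names liver ECs, from WT and LRP1 eKO mice, was sequenced, and labels gave the genotype and number of every library. The signal was deposited after quantile normalization by the authors, in a table of 22520 protein-coding genes where each library has its own column, and all columns were read. The unit before normalization and the processing of this table are not stated. Submitters' processing notes name TopHat2, Cufflinks and mm10, without roles, whereas the study's methods describe trimGalore, STAR and featureCounts. Quantile normalization removes a global shift between libraries and limits the values of the most abundant genes. Depth is unknown, and no counting interval was computed.

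Signals were converted to log2(signal + 1) and compared by limma (version 3.58.1, under R 4.3.3). The model held genotype alone, used a trend of variance on mean, and p-values were adjusted by Benjamini-Hochberg over the 11391 genes whose signal was no lower than 1 in 4 or more of the 8 libraries. The thresholds were an adjusted p below 0.05 and a 2-fold change. Cox8b and other genes below the filter were fitted with all genes. Ratios of isoforms were compared with an exact two-sided permutation test over libraries. The fit was tested on simulated data. Members with their roles, and the lists of partners and cell type markers, were chosen with earlier results of these data known. The genes named were Lrp1, all isoforms analysed here of subunits IV, VIa, VIb, VIIa, VIIb, VIII and c, all of complex II, members past both thresholds, the 3 largest differences and the smallest of each complex, genes named Atp5 that are no subunits, and of the partners Cyc1, Cycs, Atpif1 and the 5 with the smallest adjusted p. The other members, Coa5, mt-Co1, mt-Cytb and markers were named after their values were seen.

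Positions, lengths and stretches of 50 bases came from GENCODE M21 (GRCm38), in which 21740 table identifiers and all 47 members were found. RefSeq names or synonyms matched all 47 members, of which 37 had promoters, and no stretch from chromosome 18 was printed. Of 128 listed partner, marker and target genes, 126 were matched, 113 by symbol and 13 by identifier. Python 3.11.15 with SciPy 1.17.1 ran the exact tests and, with matplotlib 3.10.9, drew the figures. As alternatives, the added constant was 0.1 or 5, the filter was dropped or set to a mean signal of 5, limma was run without trend, with robust moderation, with array weights or with a replicate block, libraries were centred on a mean trimmed by 30% at each end, and each library was left out.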

Additional observations from a re-analysis of the deposited data

Results flagged for a closer look

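In 13 of 104 sets of 4 libraries of 1 genotype, 1 library lay apart by Dixon's ratio, the gap to the nearest library over the range, above its critical value. Independent sets would give about 1 in 20 by chance, or 5.2. These sets share libraries and members, so that 13 cannot be weighed against 5.2. WT 4 was the highest WT library in 10 of the 13. The ratio was 0.932 for Atp5o, 0.928 for Atp5l, 0.881 for Atp5b, 0.874 for Atp5sl, 0.870 for Uqcrc1, 0.860 for Uqcrb and 0.839 for Cox6b1. For the mean deviation of the ubiquitous subunits it was 0.885 in complex III, 0.909 in complex IV and 0.875 in complex V. Among LRP1 eKO libraries, LRP1 eKO 2 was the lowest for Cox7a2l (0.830) and the highest for Atp5j2 (0.898) and Atp5l (1.000, the other 3 having equal values). Without WT 4, Atp5o differed by -0.24, Atp5l by -0.31 and Atp5b by -0.15 on the log2 scale, and complexes III, IV and V by -0.14, -0.16 and -0.21.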

How the results depend on the processing

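The members lower in LRP1 eKO numbered 30 (beside 22.2% of all genes tested), and 21 with no filter (10.6% of 22520 genes). They numbered 28 without trend (21.9%), 31 with robust moderation (22.2%) or trimmed centring (22.6%), and 35 with array weights (27%). They numbered 30 with a pseudocount of 0.1 or 5 (22.1% each) or a minimum mean signal of 5 (22.7%). They ranged from 22 (without LRP1 eKO 3) to 32 (without WT 4) when 1 library was left out, against 17.8% and 22.9% of all genes. No tested member was higher or past 2-fold in any of these fits, while Cox8b, fitted without the filter, differed by -2.40 with a pseudocount of 0.1. The complex medians kept their sign, from -0.13 to -0.10 for complex II and from -0.28 to -0.21 for complex V with 1 library left out. The Cox6a2 to Cox6a1 ratio difference of -0.38 became -0.06 with a pseudocount of 5, and the Cox8b to Cox8a difference of -0.43 became -2.13 with 0.1 and 0.09 with 5, since the added constant is large beside these signals. Leaving out 1 library, the Cox7a1 to Cox7a2 difference ranged from -0.04 to 0.28 and turned negative without WT 1 (-0.04) and LRP1 eKO 1 (-0.02), and the log2 fold change of Cox7a1 ranged from -0.31 (without WT 1) to 0.08 (without LRP1 eKO 3). The causes were not tested.

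By the labels, samples with the same number shared only that number. Their deviations from the group means correlated at -0.0856, -0.13, 0.178 and 0.0378 across genes, which cannot show whether they had a common origin. With a replicate block, 27 members and 19.4% of all genes tested were lower. By limma adjusted p, Cox5b (0.052), Sdhd (0.058), Cox6a2 (0.062), Atp5sl (0.066) and Cox8b (0.076) lost their call and Atp5k (0.027) gained one. Signals without counts and 4 libraries a group limit the precision, most for Cox6a2, Cox7a1, Cox4i2 and Cox8b.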

Other observations

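Regulators of respiratory genes did not share a direction. Of 11 listed, 9 were tested, 1 was lower, 1 was higher (22.2% and 19% of all genes tested), and the median log2 fold change of the 9 was -0.03. Nrf1, which encodes a factor that binds many respiratory promoters, had signals of 9.63, 11.2, 9.43 and 10.1 in WT and 8.11, 8.35, 9.32 and 8.33 in LRP1 eKO libraries (-0.22, SE 0.066, limma adjusted p = 0.025), with no overlap of the groups. Pprc1, a coactivator related to PGC-1alpha, had 10.9, 10.1, 9.91 and 9.61 in WT and 11.4, 12.5, 11.7 and 11.5 in LRP1 eKO libraries (0.20, SE 0.055, adjusted p = 0.017). Gabpa, the ETS factor of many of these promoters, had 12.7, 15.6, 14.8 and 10.8 in WT and 15.3, 15.9, 18.3 and 16.5 in LRP1 eKO libraries, with overlapping groups (0.28, adjusted p = 0.052). Ppargc1a, which encodes PGC-1alpha, was below the filter at 0.145 to 0.279 in WT and 0.0220 to 0.126 in LRP1 eKO libraries.

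By complex, 1 of 3 tested assembly factors of complex II, 1 of 6 of complex III, 6 of 22 of complex IV and 2 of 4 of complex V with its inhibitor were lower, against 22.2% of all genes tested. Sdhaf4, which helps to mature Sdha, had 17.9 to 23.8 in WT and 14.0 to 17.6 in LRP1 eKO libraries without overlap (-0.36, limma adjusted p = 0.014), while Sdha itself did not pass. The remaining marker sums were those of macrophages (98.8 to 190 in WT, 48.1 to 553 in LRP1 eKO), liver sinusoid (7.84 to 11.7 and 8.38 to 33.0) and red cell precursors (24.7 to 46.3 and 14.6 to 24.7). The sums of 10 endothelial markers, of which 7 were tested, were 33.9 to 38.7 in WT and 41.9 to 63.6 in LRP1 eKO libraries. Of the 7, by limma, 2 were higher and 0 were lower, also at an unadjusted p below 0.05. Cldn5, below the filter, had 0.967 to 1.19 in WT and 0.568 to 0.826 in LRP1 eKO libraries, and a fit with all genes gave -0.32 (adjusted p = 0.013).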
